A study of Mus musculus with 17 samples.

Results

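The comparison set long-term hematopoietic stem cells (LT-HSC, 2 arrays) against multipotent progenitors (MPP, 3 arrays), which are 5 of the 17 mRNA arrays of the series and were taken by their labelled population. All populations came from the bone marrow of female C57Bl/6 mice aged 6 to 8 weeks, with 10 to 20 mice pooled for each replicate by the methods, and no group was treated or genetically modified. LT-HSC were sorted as Lin- c-kit+ Sca-1+ CD34- Flt3- cells and MPP as Lin- c-kit+ Sca-1+ CD34+ Flt3+ cells, and ST-HSC (short-term HSC, 3 arrays), which are CD34+ Flt3-, are given where they place a gene between both. Of the LT-HSC arrays, the one read from a pool of replicates 2 and 3 is called the pool array, and the other, whose label gives no number, is called the unnumbered array. MPP values are given in the order replicate 2, replicate 3 and unnumbered.

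LT-HSC can rebuild the blood system for the life of a recipient, rest outside the cell cycle for most of the time, and stand at the top of the hematopoietic hierarchy. MPP keep the capacity to make all blood lineages but have lost long-term self-renewal, and the gain of the receptor tyrosine kinase Flt3 on their surface accompanies the first expression of lymphoid genes. Stem cells also carry low levels of transcripts of several mature lineages, in particular of platelets, a state known as priming. The question of the comparison is which transcripts go with the loss of self-renewal and with the gain of Flt3.

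Levels are normalized log2 intensities of 1 probe per gene name, so that 1 unit is a doubling, and a difference is MPP minus LT-HSC. Genes were called at an adjusted p under 0.05 in limma over 28090 gene names. The Agilent software found 15775 gene names well above background on the pool array and 12636 on the unnumbered array, against 16507 to 19763 on the MPP arrays. The means of 14206 ± 2220 (SD, n = 2) and 18356 ± 1672 (SD, n = 3) did not pass a two-sided exact permutation test (p = 0.2, where the smallest possible p is 0.1). Signal was weakest on the unnumbered LT-HSC array, where the 75th percentile of intensity was 53.1, against 243 on the pool array and 329 to 446 on the MPP arrays. The LT-HSC arrays had a Spearman correlation of 0.92 with each other, between the 0.94 to 0.95 of the pool array and the 0.89 to 0.91 of the unnumbered array with the MPP arrays, and the MPP arrays had 0.96 to 0.99 among themselves. The LT-HSC arrays occupied 1 slide that held no other population, so slide and population cannot be told apart, and they shared their scanning run with MPP replicates 2 and 3 but not with the unnumbered MPP array.

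Several markers of other cells were well above background on the LT-HSC arrays. The 9 measured markers of mature erythroid cells had a summed level of 14.14 to 14.56 (log2) in LT-HSC and 12.85 to 13.96 in MPP, and 4 of them were called higher in LT-HSC (44.4%, against 5.27% of all genes). The 10 markers of B cells had a summed level of 14.01 to 15.08 in LT-HSC and 11.51 to 11.93 in MPP. Most of the LT-HSC sum came from Pou2af1, at 14.72 and 13.51, and the list median was -0.43. Of the 10, 3 were called higher in LT-HSC (30%) and 3 had a difference above 0. The pool array had 7 markers well above background and the unnumbered array 4, against 6 to 9 on the MPP arrays. Pax5, Cr2 and Fcer2a were not well above background on either LT-HSC array. The 10 markers of mature neutrophils summed to 18.44 to 19.10 in LT-HSC, 16.20 to 16.26 in MPP replicates 2 and 3 and 18.15 in the unnumbered MPP array, with 2 called higher in LT-HSC (20%). The 12 markers of T and NK cells summed to 11.62 to 11.92 in LT-HSC and 12.09 to 12.31 in MPP, with 3 called higher in LT-HSC (25%) and 2 higher in MPP (16.7%, against 3.17% of all genes). No marker of macrophages and dendritic cells was called, at sums of 10.59 to 11.62 and 10.95 to 11.20. The 11 markers of marrow stroma summed to 11.21 to 11.59 in LT-HSC, with 7 of them not well above background on either array, and to 12.11 to 12.51 in MPP. The part of such cells in the differences below was not tested, and in bulk samples fewer cells of a type and less RNA per cell cannot be told apart.

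More genes were called higher in LT-HSC than in MPP. Of 28090 gene names, 1481 were higher in LT-HSC (5.27%) and 891 were higher in MPP (3.17%), and 522 and 170 of these differed at least 4-fold. Of the 1481, 622 lacked a signal well above background on every one of the 5 arrays, against 5 of the 891, and 693 were well above background on both LT-HSC arrays. The lowest level called well above background was 4.09 and 5.67 on the LT-HSC arrays but 2.45 to 3.58 on the MPP arrays, so that a gene higher in LT-HSC can more readily miss the call, and a filter on it does not treat the populations alike. With such a filter, of well above background on at least 2 arrays of a population, 713 were higher in LT-HSC and 821 in MPP. Genes higher in LT-HSC made up 62.4% of the calls, but 87.9% when arrays were scaled to their 75th percentile (4465 and 616 genes, with the median of all genes at -0.30), 50.1% after normexp background correction (1101 and 1096) and 53.1% in the authors' table (1145 and 1011). Without the unnumbered LT-HSC array 959 and 354 genes were called, and without the pool array 2492 and 1670. With slide as a random block the numbers were 622 and 342, and within the 1 run that held both LT-HSC arrays and MPP replicates 2 and 3 they were 276 and 114. With run as a fixed term the numbers were 2383 and 2490, so that genes higher in MPP were then the more numerous.

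**Figure D1:**
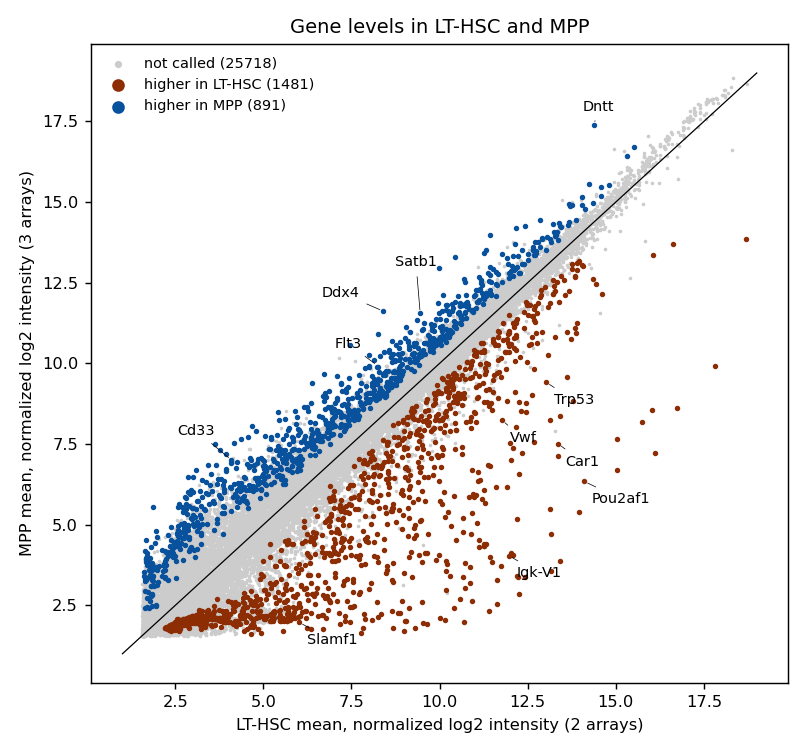
Mean normalized log2 intensity in LT-HSC (x axis, 2 arrays) and MPP (y axis, 3 arrays) of 28090 gene names, with genes called by limma in color and the line of equal level in black. The 1481 genes higher in LT-HSC reach much farther from the line than the 891 higher in MPP, and many of them lie at the lowest levels of both populations.

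Of the genes used in the sort, transcripts of the receptors that separate the populations were higher in MPP without passing the test. Flt3 (probe at chr5:148159595-148159654, mm9) stood at 7.58 in the pool array and 8.90 in the unnumbered array of LT-HSC, and at 9.89, 10.12 and 9.77 in MPP. The arrays did not overlap, and the difference of 1.69 ± 0.51 (SE) had an adjusted p of 0.0594 in limma. Cd34, a sialomucin, was at 14.82 and 15.11 in LT-HSC and at 16.48, 16.53 and 16.92 in MPP (difference 1.68 ± 0.50, adjusted p = 0.0579), so its mRNA was abundant in cells sorted as CD34-. Kit, the receptor for stem cell factor, lay at 11.81 and 11.38 in LT-HSC and 11.47, 12.04 and 11.01 in MPP. Ly6a, which encodes Sca-1, lay at 10.96 and 9.98 against 9.41, 9.80 and 10.59. The arrays of both populations overlapped for Kit and Ly6a. Surface protein, on which the cells were sorted, was not measured here.

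The list of surface and secreted genes of LT-HSC was shifted towards LT-HSC. Of its 24 members on the array, 9 were higher in LT-HSC (37.5%, against 5.27% of all genes) and 0 were higher in MPP, with a median difference of -0.96 against 0.02 over all genes. Vwf, which encodes the von Willebrand factor of platelets and endothelium (probe at chr6:125636551-125636610, mm9), was at 11.69 and 11.86 in LT-HSC and at 8.03, 8.27 and 8.39 in MPP. The gap of 11.7-fold was far larger than the spread of either population (difference -3.55 ± 0.30, adjusted p = 1.91e-05), a second probe gave -3.42, and the remaining probe, dim in both populations, gave -0.66. Slamf1, which encodes the stem cell surface marker CD150 (probe at chr1:173730343-173730402, mm9), was at 6.63 and 5.40 in LT-HSC and at 1.75, 2.32 and 1.84 in MPP, where no array was well above background. It was at least 8.58-fold higher in LT-HSC (adjusted p = 0.000242), of which the pool array alone was well above background. A second Slamf1 probe, not well above background in either population, gave -0.64 ± 0.60, and within the 1 run Slamf1 was not called. Sdpr, a caveolar protein, fell from 11.64 and 11.09 in LT-HSC to 6.50, 6.67 and 7.35 in MPP. Clec1a, a C-type lectin, was at 6.08 and 4.83 in LT-HSC against 2.42, 1.84 and 1.76 in MPP, where it was not well above background, and was at least 5.83-fold higher in LT-HSC, of which 1 array was well above background. Ehd3, Pdzk1ip1, Ctnnal1 and Cd9 were also called, at differences of -2.87, -1.92, -1.71 and -0.93.

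Several members of the same list did not pass the test. Procr, the endothelial protein C receptor used to enrich stem cells, was at 11.95 and 11.29 in LT-HSC and 11.23, 11.57 and 11.17 in MPP, where the arrays overlapped. Tek, the angiopoietin receptor, differed by -0.99 ± 0.35 (adjusted p = 0.106). Within the 1 run 4 members of the list were called higher in LT-HSC, with a random slide block 7, and without the unnumbered LT-HSC array 8. Cd9 did not pass without that array, at an adjusted p of 0.37.

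Among 32 transcription regulators of LT-HSC, 8 were higher in LT-HSC (25%, against 5.27% of all genes) and 3 were higher in MPP (9.38%, against 3.17%), with a median difference of -0.07. Gata2, a zinc finger factor needed for stem cell maintenance, was at 12.27 and 12.05 in LT-HSC and 10.92, 10.92 and 10.60 in MPP (difference -1.35 ± 0.17, adjusted p = 0.000324). A second Gata2 probe gave -1.73. Tcf15, a basic helix-loop-helix factor linked to quiescent stem cells, fell from 9.79 and 9.55 to 6.97, 7.10 and 7.56. Hoxb5, a homeobox gene that marks LT-HSC, was at 6.63 and 5.98 in LT-HSC and at 3.29, 4.27 and 3.86 in MPP. Gata3 was at 10.23 and 9.68 against 8.48, 8.89 and 7.96 (adjusted p = 0.0392), and did not pass without the unnumbered LT-HSC array (adjusted p = 0.0887), nor did Hoxb5 (0.072). Rarb, Gfi1b, Mllt3 and Tal1 were the other members higher in LT-HSC. In the opposite direction, Hoxa9 rose from 8.96 and 9.30 to 9.88, 10.28 and 10.24, and Erg and Lyl1 differed by 0.83 and 0.62 but did not pass without the unnumbered LT-HSC array (0.283 and 0.114). The stem cell regulators Meis1 and Hlf did not separate the populations, at differences of -0.08 ± 0.26 and 0.32 ± 0.26, and Mycn and Prdm16 also did not pass the test. In all, 21 of the 32 were not called. Without the pool array 4 members were higher in LT-HSC, and within the 1 run 1 was.

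**Figure D2:**
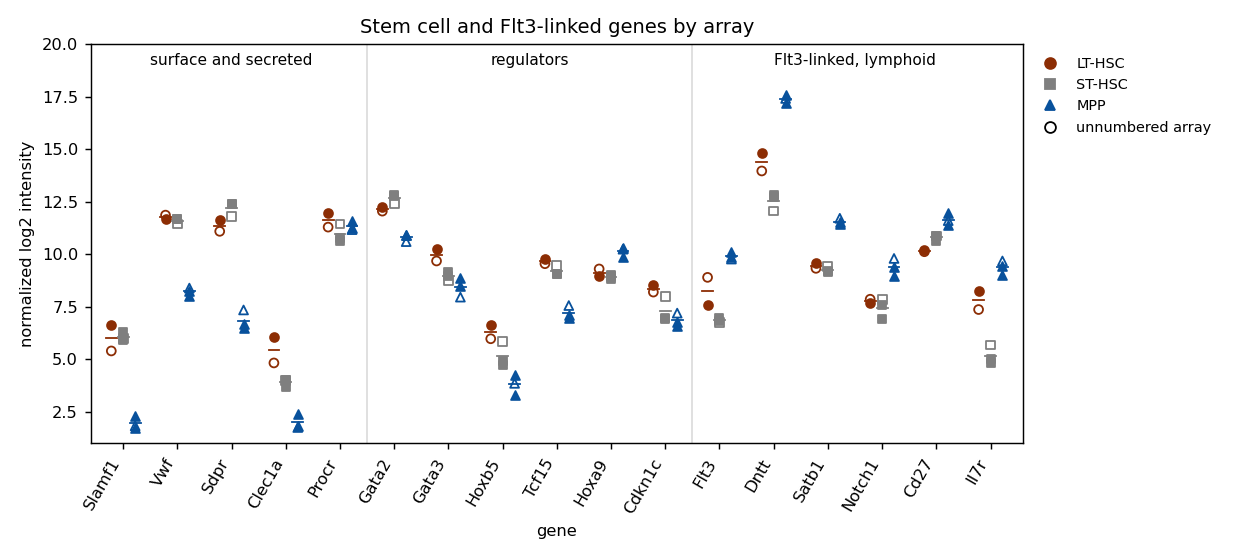
Normalized log2 intensity (y axis) of stem cell and Flt3-linked genes on each array of LT-HSC, ST-HSC and MPP, with open symbols for unnumbered arrays and short lines for group means. Vwf, Sdpr and Tcf15 stay at 9.06 or above on every LT-HSC and ST-HSC array and lie lower in MPP, whereas Flt3, Dntt, Satb1 and Il7r are highest in MPP and no higher in ST-HSC than in the upper of the LT-HSC arrays.

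Of 22 genes of quiescence and cell cycle inhibition, 3 were higher in LT-HSC (13.6%, against 5.27%) and 0 in MPP. The median of 0.02 was -0.03 after scaling to the 75th percentile, 0.23 with run as a fixed term and 0.22 within the 1 run. Cdkn1c, which encodes the inhibitor p57 that holds stem cells out of cycle, was at 8.54 and 8.20 in LT-HSC and at 6.59, 6.78 and 7.20 in MPP (difference -1.52 ± 0.31, adjusted p = 0.0103). Cdkn2b was at 4.76 and 4.07 against 2.75, 2.64 and 2.76, and was well above background on 1 array of each population. Trp53, the tumor suppressor p53, was at 13.11 and 12.96 in LT-HSC and at 9.35, 9.53 and 9.35 in MPP by its brightest probe, but its second probe differed by only -0.51 ± 0.41 (adjusted p = 0.521), so the gene's probes disagree. Cdkn1a, Cdkn1b and Ndn did not pass the test, at 0.70, 0.42 and -0.39. With slide as a random block 1 member of the list was called higher in LT-HSC, Trp53, while Cdkn1c and Cdkn2b were not.

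Few proliferation genes were called, although the mitosis genes leaned towards MPP. Of 38 DNA replication genes, 1 was called (2.63%, below the 5.27% of all genes), and the median was 0.13. That gene was Ccne1, cyclin E1, which drives entry into S phase and was higher in LT-HSC, at 12.83 and 12.25 against 10.65, 10.62 and 10.41 in MPP. Its second probe gave -1.41. Of 54 mitosis genes, 4 were higher in MPP (7.41%, against 3.17% of all genes), namely Spag5, Melk, Ckap2 and Kif11, with a list median of 0.29. The difference was above 0 for 42 of the 54, and the arrays did not overlap for 22 members higher in MPP and 2 higher in LT-HSC (over all gene names, 17.7% and 19.2%), while within the 1 run 0 members were called. Without the unnumbered LT-HSC array 2 were called, without MPP replicate 2 it was 1, without the pool array 5 and with labelled replicate sets as a block 9. Mki67, a marker of cycling cells, stood at 13.78 and 13.61 in LT-HSC and 13.78, 13.71 and 13.91 in MPP, and Top2a differed by 0.18 ± 0.44. Among 10 G1 cyclins and kinases, Cdk6, a kinase that lets stem cells leave quiescence, rose from 13.53 and 13.81 to 14.36, 14.31 and 14.47 (difference 0.71 ± 0.20, adjusted p = 0.0458, or 0.0919 without the unnumbered LT-HSC array), while Ccnd1 differed by 0.69 ± 0.25 without passing. In the list of Myc and ribosome biogenesis genes 1 of 27 members was called (3.7%, below the 5.27% of all genes). That member was Bysl, at -0.85 by its brightest probe and at -0.95 ± 0.22 and -0.58 ± 0.41 by its others, of which the last did not pass. Myc itself was at 12.18 and 11.59 against 12.29, 12.83 and 11.44.

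The Flt3-linked and lymphoid priming list moved towards MPP. Of its 37 genes, 7 were higher in MPP (18.9%, against 3.17% of all genes) and 2 were higher in LT-HSC (5.41%, against 5.27%), with a median difference of 0.77, and the 2 LT-HSC arrays lay below the 3 MPP arrays for 20 members and above them for 2 (over all gene names, 17.7% and 19.2%). Dntt encodes terminal deoxynucleotidyl transferase, which adds bases at antigen receptor joints (probe at chr19:41133936-41133995, mm9). It was at 14.80 and 13.96 in LT-HSC and at 17.56, 17.20 and 17.41 in MPP, a gap of 3.01 ± 0.58 (adjusted p = 0.00716), and its other probes gave 3.25 and 3.44. Without the unnumbered LT-HSC array the Dntt gap was 2.59 and its adjusted p was 0.0797. Satb1, a chromatin organizer of lymphoid genes, rose from 9.57 and 9.33 to 11.42, 11.51 and 11.71 (difference 2.09 ± 0.28, adjusted p = 0.000573). Emb, the cell adhesion protein embigin, rose from 12.33 and 12.50 to 14.35, 14.28 and 14.16.

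Notch1, the receptor that directs T cell fate, was at 7.70 and 7.86 in LT-HSC and 9.39, 8.97 and 9.80 in MPP (adjusted p = 0.0109). Cd27, a receptor of the tumor necrosis factor family, was at 10.22 and 10.12 against 11.38, 11.95 and 11.60 (adjusted p = 0.00599). Cnn3 was also called, at 1.34. The remaining call, Rag2, was well above background on no LT-HSC array and 1 MPP array, so that it gives no measured difference and 6 of the 7 calls rest on levels above background in both populations. The transcripts called the other way were Igll1 and Vpreb1, which encode the surrogate light chain of pre-B cells, at -3.10 and -1.83.

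Other Flt3-linked genes lay higher in MPP without passing the test over all genes. Il7r, the interleukin 7 receptor, was at 8.27 and 7.37 in LT-HSC and 9.46, 9.01 and 9.68 in MPP (difference 1.56 ± 0.57, adjusted p = 0.117). Irf8 was at 11.05 in the pool array, 13.14 in the unnumbered array, and 13.80, 14.05 and 13.45 in MPP. Its adjusted p was 0.0509 with all arrays and 0.00159 without the unnumbered LT-HSC array, which lay close to MPP. Flt3 and Cd48 also passed without that array, at adjusted p values of 0.0439 and 0.0416. The list had 9 members higher in MPP without the unnumbered LT-HSC array, 5 with slide as a random block, and 3 within the 1 run. Rag2 and Vpreb1 did not pass without that array, at 0.103 and 0.0708.

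Granulocyte and monocyte priming was mixed. Of 23 genes, 2 were higher in MPP (8.7%, against 3.17%) and 1 was higher in LT-HSC (4.35%, near the 5.27% of all genes), and the median of -0.19 was 0.18 without the unnumbered LT-HSC array. Cd33, a sialic acid binding receptor of myeloid cells, rose from 4.46 and 3.71 to 7.16, 6.49 and 7.39, and was well above background on only 1 of the 2 LT-HSC arrays. Cebpa, the regulator of granulocyte fate, was at 6.69 and 8.01 in LT-HSC and 8.96, 9.30 and 9.07 in MPP (adjusted p = 0.0474). A dimmer Cebpa probe gave 0.87 ± 0.48 without passing. Cebpa also lost its call after 75th percentile scaling, with slide as a random block and within the 1 run. Ly6c1 was higher in LT-HSC, at 12.42 and 12.11 against 8.10, 8.21 and 10.05. Mpo, the granule enzyme myeloperoxidase, was at 15.80 and 17.71 in LT-HSC and 15.86, 15.97 and 17.35 in MPP, so that the unnumbered arrays of both populations were the high ones. Csf1r differed by 0.83 ± 0.55 and did not pass.

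Of 24 megakaryocyte and platelet genes on the array, 12 were higher in LT-HSC (50%, against 5.27%) and 0 were higher in MPP. The median was -1.56, or -0.68 after normexp correction and -1.15 in the authors' table. Vwf belongs to this list as well as to the surface list, and Gata1 and Zfpm1 also to the erythroid list. Pf4, a chemokine of platelet granules, was at 12.50 and 12.87 in LT-HSC and at 9.35, 9.77 and 10.41 in MPP (difference -2.85 ± 0.48, adjusted p = 0.00284). Treml1, a receptor stored in the same granules, was at 10.03 and 10.04 against 6.43, 6.92 and 6.99. Gp1ba, which encodes the platelet receptor for von Willebrand factor, was at 7.68 and 6.93 against 4.34, 4.82 and 4.54. Gp1bb and Gp5, whose products join the same receptor complex, differed by -1.61 and -2.04. Gata1, the master regulator of platelet and red cell formation, fell from 9.21 and 7.73 to 4.74, 5.32 and 6.02, and its cofactor Zfpm1 from 14.55 and 14.12 to 12.52, 12.91 and 12.41. Itga2b, the platelet integrin CD41, did not pass, at 7.07 and 7.91 against 4.69, 6.22 and 7.21, where the arrays overlapped. Within the 1 run 6 members were called, without the unnumbered LT-HSC array 9 and without the pool array 10, with Gp1bb at an adjusted p of 0.101 without the unnumbered array.

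Of the 20 genes of the erythroid priming list, 16 were higher in LT-HSC (80%, against 5.27%), 0 were higher in MPP, and the median difference was -2.92, which was -1.68 after normexp correction. Car1, carbonic anhydrase of early red cells, was at 13.69 and 13.05 in LT-HSC and at 6.93, 7.74 and 7.83 in MPP, a 58.5-fold gap (difference -5.87 ± 0.57, adjusted p = 4.73e-05). Epor, the erythropoietin receptor, was at 12.50 and 11.67 against 6.88, 7.40 and 7.85. Klf1, the factor that activates the globin genes, was at 10.83 and 9.65 against 4.23, 5.24 and 6.69. Ermap and Rhd, which encode blood group antigens, differed by -5.47 and -5.10. The transferrin receptor gene Tfrc differed by -0.72 and Gypc by 0.32, of which only the first passed.

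The globin genes, by contrast, did not pass. Hbb-b1 was at 14.22 and 13.58 in LT-HSC and 12.60, 13.71 and 13.25 in MPP, and Hba-a1 was at 12.04 and 12.34 against 9.93, 11.10 and 11.22. Rhag, Epb4.2 and Spna1, which encode proteins of the red cell membrane, were called and were not well above background on any MPP array. They were at least 14.3-fold, 3.27-fold and 5.11-fold higher in LT-HSC, where Epb4.2 and Spna1 were well above background on 1 array. Without the unnumbered array 16 of 20 members of the erythroid list were called, without the pool array 12, with slide as a random block 13 and within the 1 run 3. The list of mature erythroid markers had 2 calls without the pool array.

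The factor Gata1 binds the sequences AGATAA and TGATAA, on either strand, in many erythroid and platelet genes. The promoters of 4 such genes called here are shown, as the 250 bases before the start site in RefSeq on GRCm38.p6, in lower case with matches to either motif, read on both strands, in capitals.
Epor (chr9:21963577-21963826, minus strand): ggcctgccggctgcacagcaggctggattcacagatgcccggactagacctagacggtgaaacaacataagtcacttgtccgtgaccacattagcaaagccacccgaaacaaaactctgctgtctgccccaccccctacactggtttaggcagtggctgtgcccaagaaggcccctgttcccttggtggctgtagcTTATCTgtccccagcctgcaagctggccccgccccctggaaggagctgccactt
Klf1 (chr8:84901732-84901981, plus strand): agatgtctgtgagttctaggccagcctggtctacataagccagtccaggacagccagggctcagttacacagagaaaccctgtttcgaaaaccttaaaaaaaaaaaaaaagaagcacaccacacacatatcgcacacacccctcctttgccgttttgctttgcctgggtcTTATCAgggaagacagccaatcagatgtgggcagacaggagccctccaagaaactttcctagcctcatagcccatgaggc
Ermap (chr4:119189996-119190245, minus strand): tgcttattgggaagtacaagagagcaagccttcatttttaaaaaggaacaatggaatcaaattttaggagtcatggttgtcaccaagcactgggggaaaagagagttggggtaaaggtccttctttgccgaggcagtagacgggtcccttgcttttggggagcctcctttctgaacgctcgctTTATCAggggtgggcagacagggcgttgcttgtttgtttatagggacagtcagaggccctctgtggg
Gp1ba (chr11:70638872-70639121, plus strand): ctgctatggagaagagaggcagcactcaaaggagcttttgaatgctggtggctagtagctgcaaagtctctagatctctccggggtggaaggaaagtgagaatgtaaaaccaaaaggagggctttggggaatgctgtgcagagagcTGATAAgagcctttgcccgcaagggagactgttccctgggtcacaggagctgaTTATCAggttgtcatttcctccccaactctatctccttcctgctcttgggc
The match begins 54 bases before the start site in Epor, 80 in Klf1 and 67 in Ermap, and Gp1ba holds 2, at 104 and 51 bases. Of the 26 erythroid and platelet genes called, 18 had a promoter in the table and 10 of these held a match (55.6%), against 18.8% of the 27025 gene names in the table and 1 of the 7 Flt3-linked genes called higher in MPP. By list, 7 of 12 called erythroid genes with a promoter held a match (58.3%) and 3 of 8 called platelet genes (37.5%). The 4 promoters shown are among those with a match. A match is a description of the letters and shows no binding.

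Among gene symbols, the largest differences belonged to antibody genes. Of 14 gene names of immunoglobulin chains on the array, 11 were higher in LT-HSC (78.6%, against 5.27%) and 0 were higher in MPP, with a median difference of -6.91. One of the 11, Igl-V1, had a value on the unnumbered LT-HSC array alone, so its test assumes that LT-HSC varied like the other groups. Genes named as kappa or heavy chain variable segments made up 7 of the 12 leading genes higher in LT-HSC. Gm1502 and Gm1524, also among the 12, had probes on chromosome 6 between those of Igk-V38 and Igk-V19-14. Igk-V1 was at 12.34 and 11.61 in LT-HSC and 3.51, 4.15 and 4.46 in MPP. Igkv14-111 was at 15.34 and 14.72 against 5.88, 6.96 and 7.28. Variable segments resemble each other, so a probe may read several of them. For both genes the LT-HSC arrays were high and the MPP arrays low, whereas Igh-2, Igh-6 and Igh-VJ558 did not pass.

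Genes of antibody-secreting cells went the same way, in a list of 15 that was put together after the values were seen. Of its 14 members on the array 8 were higher in LT-HSC (57.1%, against 5.27%) and 0 in MPP, which supports nothing since the list was chosen for its values. Pou2af1, a coactivator of octamer factors in B cells, was at 14.72 and 13.51 in LT-HSC and 5.79, 6.67 and 6.55 in MPP (difference -7.77 ± 0.57, adjusted p = 5.73e-06). Tnfrsf17, the survival receptor BCMA of plasma cells, was at 12 and 10.50 against 4.39, 4.09 and 4.50. Igj, the joining chain, was at 16.73 in the unnumbered LT-HSC array and 8.25, 8.82 and 8.78 in MPP, while its spot in the pool array was marked as an outlier and left out, so that its call rests on 1 LT-HSC array in the same way. Prdm1, Derl3, Mzb1 (named 2010001M09Rik on the array), Fkbp11 and Slamf7 were also called, whereas Sdc1, the plasma cell marker CD138, was not, at 10.61 and 9.39 against 9.68, 9.71 and 10.45. The heavy chain constant gene Igh-6 was at 16 and 15.10 in LT-HSC and 15.25, 15.06 and 15.04 in MPP by its brightest probe (adjusted p = 0.496), but another of its probes differed by -6.53, so its probes disagree.

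Of the B cell markers, Ms4a1, which encodes CD20, was at 10.06 and 8.92 against 3.06, 3.84 and 4.59. Of the T and NK cell markers, Gzma was at least 15.0-fold higher in LT-HSC, with 1 LT-HSC array and no MPP array well above background, and Cd3g and Cd3d differed by -3.13 and -2.70. Cd8a and Lck went the other way, at 2.69 and 0.96, although another Cd8a probe, not well above background in LT-HSC, did not pass. Without the unnumbered LT-HSC array Cd3g, Cd3d and Lck did not pass, at adjusted p values of 0.0829, 0.0661 and 0.128. B220, CD3, GR-1 and Ter119 were the antigens used to deplete lineage cells before the sort. Of the neutrophil genes, S100a8 was at 15.43 and 16.69 in LT-HSC and 12.75, 12.67 and 14.63 in MPP (adjusted p = 0.0399), and Lcn2 at 8.99 and 9.95 against 5.96, 6.28 and 8.11. The unnumbered MPP array was the highest of its group for both genes. Without the unnumbered LT-HSC array neither passed, and S100a8 had an adjusted p of 0.331.

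**Figure D3:**
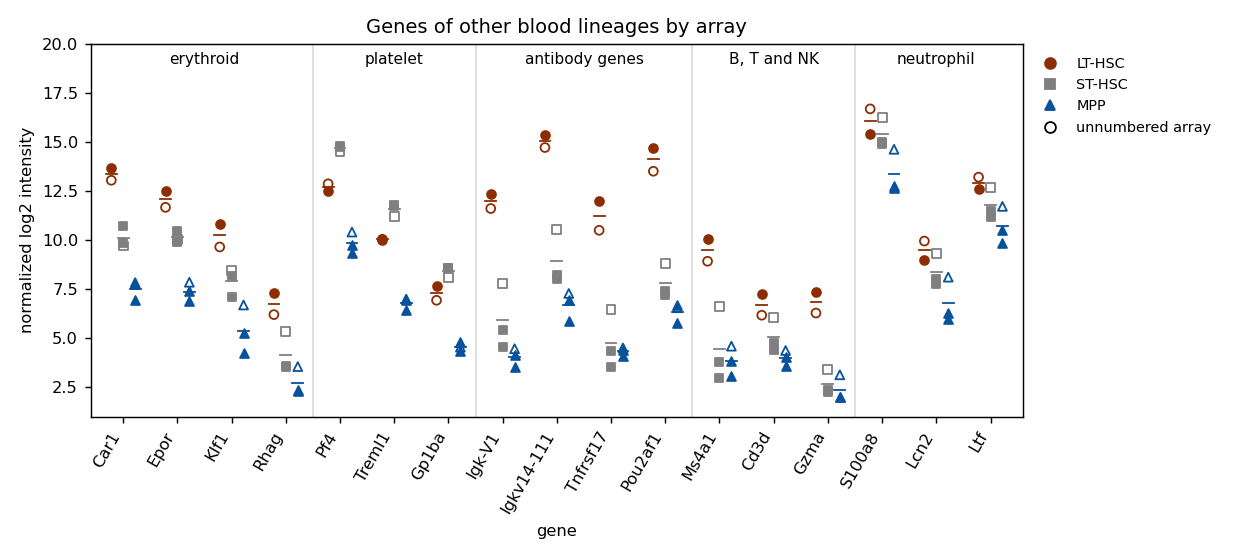
Normalized log2 intensity (y axis) of genes of other blood lineages on each array of LT-HSC, ST-HSC and MPP, with open symbols for unnumbered arrays and short lines for group means. The 4 antibody genes drawn stand higher on both LT-HSC arrays than on any other array, the erythroid genes drawn step down from LT-HSC over ST-HSC to MPP, and Pf4, Treml1 and Gp1ba are highest in ST-HSC.

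Of the 12 leading genes higher in MPP, Ddx4, the germ cell helicase Vasa, was the brightest, at 9.69 and 7.10 in LT-HSC and 11.59, 11.54 and 11.72 in MPP (difference 3.22 ± 0.67, adjusted p = 0.0113). Kal1, by the name on the array and with a probe on chromosome 11, was at 8.73 and 6.16 against 10.28, 10.35 and 11.12. In both genes the LT-HSC arrays differed by more than 2 units and the unnumbered array was the low one, and without that array the adjusted p values were 0.142 and 0.378. Spint1, a protease inhibitor, was at 5.15 and 3.99 against 7.24, 7.74 and 8.14, and kept its call without it (adjusted p = 0.0453), but its second probe gave only 0.96 ± 0.61. Ust, Tmprss4, Speer6-ps1 and Ctnnd2 were not well above background on either LT-HSC array and were at least 3.02-fold, 2.17-fold, 2.85-fold and 2.32-fold higher in MPP. Of these, Speer6-ps1 and Ctnnd2 also passed without the unnumbered LT-HSC array, while Ust and Tmprss4 did not (adjusted p = 0.192 and 0.0987), and a second Ust probe, near background, gave 0.03. The probes of Rgs8 disagree, since its brightest probe was called (adjusted p = 0.0134, or 0.0799 without the unnumbered array) but was not well above background on either LT-HSC array, and its second, well above background on 1 LT-HSC and 3 MPP arrays, differed by 0.01 ± 0.68. Slc18a1, Slc27a2, Chl1 and Postn, the matrix protein periostin, were well above background on 1 LT-HSC array and also did not pass without the unnumbered array, at adjusted p values of 0.122, 0.0911, 0.403 and 0.215. The difference of Postn was then 1.61 instead of 3.42, and of the other Chl1 probes 1 gave 2.71 and the other -2.32.

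Among the other lists, endothelial-type genes were called in both directions, 4 of 29 higher in LT-HSC (13.8%, against 5.27%) and 2 higher in MPP (6.9%, against 3.17%). Rhoj, a small GTPase, was at 8.17 and 7.60 in LT-HSC and 3.76, 3.35 and 4.24 in MPP, and Ptrf, a coat protein of caveolae like Sdpr, was at 12.59 and 12.59 against 10.61, 10.98 and 10.25, with -0.97 ± 0.40 by a dimmer probe that did not pass. Egfl7, a secreted vascular protein, rose from 12.28 and 12.02 to 13.60, 13.66 and 13.88, and Pecam1 rose by 0.93. Cdh5, the cadherin that defines endothelium, was not well above background on either LT-HSC array. Of 26 immediate early genes, 2 were higher in MPP (7.69%, against 3.17%), the phosphatase gene Dusp2 and the cytokine signalling inhibitor Socs3, at 1.33 and 1.26, with a list median of 0.64. Socs3 did not pass without the unnumbered LT-HSC array, at an adjusted p of 0.211. Among the 11 stroma markers Postn was the only call, and the list median of 0.84 turned to -0.33 after scaling to the 75th percentile.

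**Figure D4:**
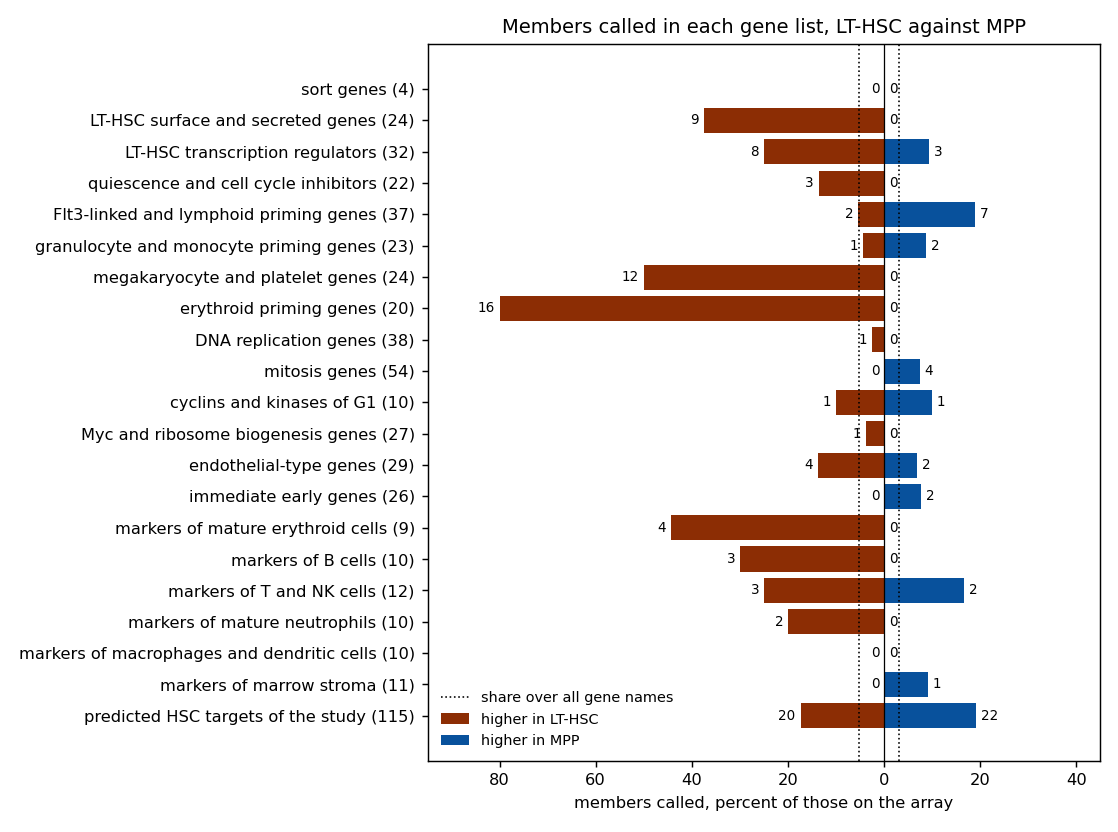
Share of the members of each list, except the antibody-secreting cell list, called higher in LT-HSC (left) or in MPP (right), in percent of the members on the array (number in brackets), with the number of calls at each bar and dotted lines at the shares over all gene names, 5.27% and 3.17%. The erythroid, platelet, mature erythroid and LT-HSC surface lists reach farthest to the left of those drawn, and the HSC target and Flt3-linked lists farthest to the right.

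The study listed predicted targets of microRNAs of HSC whose mRNA ran opposite to the microRNA over its stem and progenitor populations, CMP, GMP and MEP included, and 115 of these genes were measured. Since the study chose them on these samples, their share of calls is not independent evidence. In this comparison 22 were higher in MPP (19.1%, against 3.17%) and 20 were higher in LT-HSC (17.4%, against 5.27%), with a median of 0.32. Arpp21, a phosphoprotein regulated by cyclic AMP, was at 7.01 and 6.50 in LT-HSC and 9.32, 8.59 and 9.30 in MPP, and Esr1, the estrogen receptor, and Ypel1 rose by 1.76 and 1.72. In the other direction Col5a1, a collagen chain, fell from 9.93 and 8.63 to 3.94, 4.57 and 5.27, and Paqr9 differed by -4.90. The probes of Tmem56 disagree, at -4.99 and -0.76 ± 0.71, and a second Col5a1 probe gave -1.33 ± 0.42 without passing. Without the unnumbered LT-HSC array 6 targets were higher in MPP and 21 were higher in LT-HSC, with Arpp21, Esr1 and Ypel1 at adjusted p values of 0.138, 0.46 and 0.242, and within the 1 run the counts were 2 and 8.

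ST-HSC share CD34 with MPP and the lack of Flt3 with LT-HSC, and their level divided the genes by list. Over all calls, ST-HSC were nearer to MPP for 1202 of 1481 genes higher in LT-HSC (81.2%) and for 497 of 891 genes higher in MPP (55.8%). ST-HSC replicates 2 and 3 lay on the slide of MPP replicates 2 and 3, so that nearness and slide cannot be told apart over all genes. In the platelet list ST-HSC were nearer to LT-HSC for all 12 called members, and for 7 they were above LT-HSC. Pf4 reached 14.78, 14.73 and 14.52 in ST-HSC, above both LT-HSC arrays, and Treml1 reached 11.76, 11.79 and 11.19. All 9 called surface genes also stayed nearer to LT-HSC, with Vwf at 11.69, 11.67 and 11.44.

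The 7 called Flt3-linked genes were likewise nearer to LT-HSC in ST-HSC, and the ST-HSC mean was below the LT-HSC mean for 5. Of these, Dntt and Cnn3 did not overlap, Notch1 and Satb1 did, and Rag2 was not well above background in either. Dntt was at 12.73, 12.84 and 12.06 in ST-HSC, under both LT-HSC arrays, and the uncalled Il7r at 4.82, 5.04 and 5.68 and Flt3 at 6.99, 6.83 and 6.76 had the same order. LT-HSC lay between ST-HSC and MPP for these transcripts. The 3 called inhibitors, among them Cdkn1c at 6.99, 6.93 and 7.98 in ST-HSC, were nearer to MPP, as were all 4 called mitosis genes. The 16 erythroid calls were split, with 8 nearer to each. Igk-V1 was at 4.55, 5.39 and 7.78 in ST-HSC, with the unnumbered array highest.

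**Figure D5:**
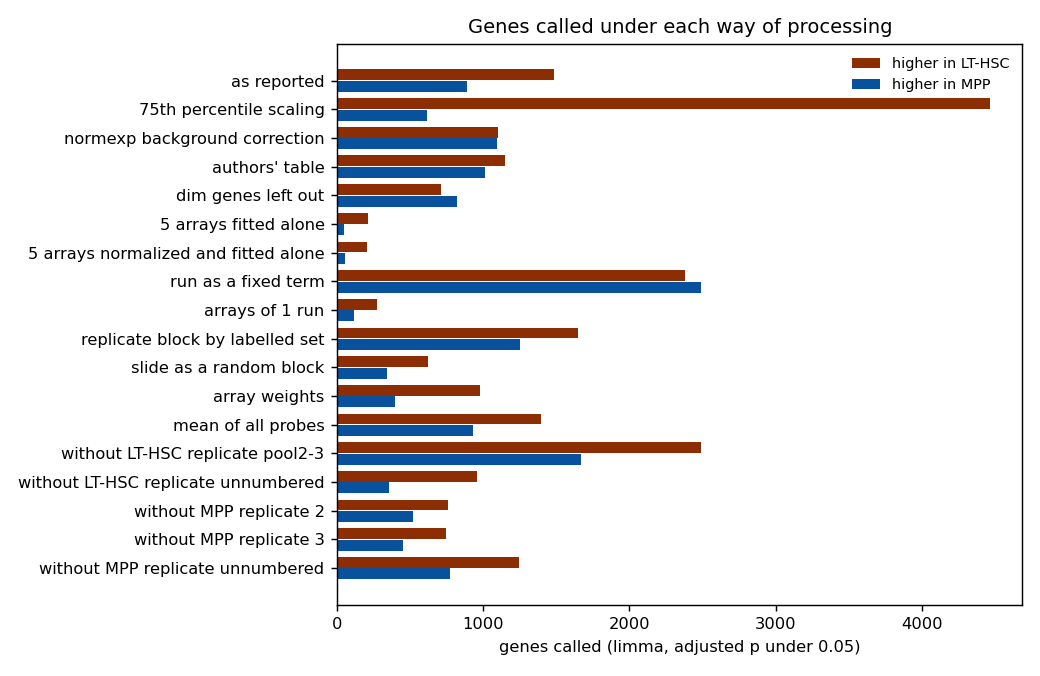
Number of genes called by limma at an adjusted p under 0.05 (x axis) as reported and under each alternative way of processing, for genes higher in LT-HSC and higher in MPP. The count of genes higher in LT-HSC ranges from 207 to 4465 and that of genes higher in MPP from 49 to 2490.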

How the data were processed

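RNA of sorted bone marrow populations was read on single-color Agilent whole mouse genome arrays. The authors deposited the Feature Extraction output of each array (versions 9.5.3.1 and 10.2.1.3), whose intensity values had been corrected for background and were not normalized between arrays. A second deposited file holds log2 values of the same arrays, for which the submitters' processing notes name limma. Its row numbers followed the order of the spots (Spearman correlation of 0.99 to 1 with mean spot intensity) and its medians were 6.44 to 6.47. It served as an alternative.

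Here log2 intensities were quantile normalized over the spots of 17 arrays (limma 3.58.1, R 4.3.3). After that step, 1639 control spots and any outlier-marked spot were dropped, spots of a probe were averaged to 41174 probes, and each of 28090 gene names took its brightest probe. All arrays entered 1 limma model (lmFit, eBayes) with a mean for each population, and p-values were adjusted by Benjamini-Hochberg. Where every array of the lower population fell short of the well-above-background call, the fold is a bound against the lowest signal well above background on each array. In simulated data of 28090 genes for MPP against LT-HSC, 12% of 100 genes changed by 1 log2 unit and 51% of 100 changed by 2 were recovered, with 3 false calls. The number of arrays limits the precision, and p-values measure the spread between arrays. List levels are log2 of summed normalized intensities.

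The gene lists and the comparison were chosen with earlier results of these data known. Named genes are the 12 largest differences each way among called gene symbols without overlap between arrays, well above background in the higher population and with no probe called the opposite way, 38 fixed genes, and the 3 largest calls each way of a list. Further members of lists are given beside them, and Epor, Klf1, Gp1ba and the antibody-secreting cell list were chosen after their values were seen. Some named genes are not reported here.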

Additional observations from a re-analysis of the deposited data

How the results depend on the processing

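Labels share only the set of replicates 2 and 3 and the unnumbered set, and nothing says that a set shares mice. With this replicate block, added after the data were seen, 1250 genes were higher in MPP and 1650 in LT-HSC, 14 Flt3-linked and 9 mitosis genes were higher in MPP, Cd34, Il7r, Cd48 and Irf8 passed (adjusted p = 0.00832, 0.0488, 0.0317 and 0.0498), and Cebpa did not (0.0678). The number of genes higher in MPP was 891 as reported, 49 with the 5 arrays fitted alone, 52 with them normalized and fitted alone, 2490 with run as a fixed term, 114 within 1 run, 342 with slide as a random block, 399 with array weights, and 354 to 1670 when 1 array was left out. The number higher in LT-HSC was 1481 as reported, 4465 after 75th percentile scaling, 713 without dim genes, 212 and 207 with the 5 arrays alone, 2383 with run as a fixed term, 276 within 1 run, 622 with slide as a random block, 980 with array weights, and 748 to 2492 when 1 array was left out. With the 5 arrays alone fewer arrays estimate the spread. The cause of the other changes was not tested. Each probe tested singly, an alternative added after the data were seen, gave 1208 and 1780 probes. For the position of ST-HSC between LT-HSC and MPP, the share of called genes nearer to LT-HSC was 28.4% as reported, 15% after 75th percentile scaling, 38.2% after normexp correction, 36.5% in the authors' table, 40.1% without dim genes, 26% with the mean of all probes, and 14.1% to 35.8% when 1 array was left out. The difference of 4150 gene names well above background was 3392 by the weaker positive and significant call and 2581 to 5720 when 1 array was left out.

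Of the 2372 calls, 158 changed sign after normexp correction, 116 in the authors' table, 15 with the mean of all probes and 11 after 75th percentile scaling, and normexp correction kept 656 calls higher in MPP and 813 higher in LT-HSC. The 85 called genes among the 109 named by rule, many of them for large differences, kept their sign under the 17 alternatives, and 20 were called under each alternative that tested them. Of the 85, 26 were called with the 5 arrays fitted alone, 34 within 1 run, 55 under the slide block, 56 without the unnumbered LT-HSC array, 70 without the pool array, 59 without MPP replicate 2, 65 without MPP replicate 3 and 73 without the unnumbered MPP array. The dim unnumbered LT-HSC array limits what can be read of weak genes.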
